A study of Mus musculus with 90 samples.

Results

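Non-megakaryocyte (NMK) cells were compared between Runx1 knockout and wild-type mice, 1 cell per RNA library. The comparison held 20 cells, 11 knockout (KO) and 9 wild-type (WT), of the 33 libraries in the authors' table without outliers, the 46 in their full table and the 90 that carry labels. All NMK columns of the table without outliers were taken, except KO replicates B1-1b and B1-2a. Mitochondrial genes held 91.6% of TPM, the length-scaled share of transcripts in a library, in B1-1b, and B1-2a had 3011 genes above 0, against 6443 to 10987 in the KO cells kept. The WT cells compared had 5475 to 11715 genes above 0. KO cells had the genotype MxCre1+/-,RUNX1f/f and WT cells MxCre1-/-,RUNX1f/f. Both genotypes therefore carried the floxed Runx1 allele, and both had received 4 injections of poly(I:C), which induces the interferon-driven Mx1-Cre recombinase. CD41-positive hematopoietic stem cells were sorted from bone marrow 4 weeks after injection and cultured for 2 days, and cells resembling megakaryocytes (MK) or not were then selected. Mx1-Cre acts in interferon-responsive cells at large and not in blood alone. The age and number of the mice were not given in the sources used here.

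RUNX1 is a DNA-binding transcription factor that works with its partner CBFB and is required for the emergence of blood stem cells and for the maturation of megakaryocytes. CD41, the integrin alpha chain encoded by Itga2b, marks platelets, megakaryocytes and a fraction of stem cells primed toward them. CD48 is a receptor of the SLAM family, which long-term stem cells lack on their surface and most multipotent progenitors and blood cells carry. Stem cells in the marrow rarely divide, and culture with cytokines brings them into the cell cycle. Genes of DNA replication are transcribed from late G1 into S phase, and those of mitosis from late S phase to division.

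The labels tie no cell to an animal or culture. All cells of a genotype were therefore treated as 1 sample, and no test was possible. Each gene is described by its TPM in the cells and by its difference, defined as the mean log2(TPM + 1) over KO cells minus that over WT cells. The pooled SD between cells of a genotype stands beside the difference. A gene is called higher or lower where the difference was 1 or more in size, among genes that averaged at least 1 TPM in KO or WT cells. A cell's score for a gene list averages log2(TPM + 1) over the members so measured. All WT cells and 8 of the KO cells have no prefix in their titles, whereas the other 3 KO cells carry the prefix B1, which no WT NMK cell of the comparison has. Gene differences and list scores of the NMK cells were therefore repeated over the cells without a prefix. The comparison of MK cells, the rescaled values and the counts of genes without overlap between the genotypes were not repeated.

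Runx1 itself, at chr16 92601466-92826074 of GRCm38.p6 in RefSeq, was read at low levels in both genotypes. Its lowest, median and highest values were 0.0, 11.2 and 41.5 TPM over the KO cells and 0.0, 5.3 and 15.7 TPM over the WT cells. The genotypes overlapped throughout, with 1 TPM or more in 7 of 11 KO and 5 of 9 WT cells. The difference was 0.90 with a pooled SD of 2.04, and 0.29 within cells without a prefix. Because reads from exons outside the floxed segment are counted too, this value does not check the labels. Of the related genes, Cbfb, the partner that stabilises RUNX proteins on DNA, had a mean of 104 ± 44.3 TPM (SD, n = 11 cells) in KO and 44.6 ± 44.0 TPM (SD, n = 9 cells) in WT, a difference of 1.49 with a pooled SD of 1.12. Runx3 differed by 1.67 with a pooled SD of 2.29, or 2.66 within cells without a prefix, and Runx2 by 0.25 with a pooled SD of 0.95.

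Transcripts of Cd48 were read in KO cells and in no WT cell. The gene was listed at 0 in all 9 WT cells, and a count of 0 in 9 cells allows a share of up to 33.3% by counting error alone. A listed 0 does not show that a cell lacked the transcript. Among the KO cells the lowest, median and highest values were 0.0, 90.8 and 304.1 TPM. Only replicate B1-5 was listed at 0, and the other 10 KO cells lay between 9.4 and 304.1 TPM. The share of KO cells with 1 TPM or more was 90.9% (exact Clopper-Pearson 95% interval 58.7% to 99.8%), an interval that covers the counting of these cells and not the spread between mice. Within cells without a prefix it was 8 of 8. No fold is given against a genotype listed at 0. In the MK cells of the same table, Cd48 was at 32.9 to 542.7 TPM in 5 of 5 KO cells and at 0.0 to 0.8 TPM in the 6 WT cells. Among the other SLAM genes measured, Cd84 had means of 11.7 ± 12.9 TPM (SD, n = 11 cells) in KO and 2.79 ± 5.47 TPM (SD, n = 9 cells) in WT, a difference of 1.42 with a pooled SD of 2.03. Without Cd48 and Slamf1, each listed at 0 throughout a genotype, the score of the 3 remaining SLAM genes differed by 0.88 with a pooled SD of 0.94. The high SLAM score of KO cells therefore rested mainly on Cd48.

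Top2a, the topoisomerase that untangles sister chromosomes, was read in every KO cell. Its lowest, median and highest values were 56.2, 124.5 and 180.9 TPM in KO cells and 0.0, 8.0 and 175.0 TPM in WT cells. WT replicate 1A, at 175.0 TPM, lay inside the KO range, WT 3A at 58.3 TPM just above its lower end, and the other 7 WT cells below it. The difference was 3.62 with a pooled SD of 1.86, and 3.56 within cells without a prefix. Kif11, the motor that pushes spindle poles apart, had values of 7.2, 118.6 and 265.9 TPM in KO cells and 0.0, 0.7 and 117.9 TPM in WT cells. WT replicates 1A, 3A and 3 were at 117.9, 85.8 and 63.2 TPM, within the KO range, while the other 6 WT cells were at 0.8 TPM or less. Its difference was 4.11 with a pooled SD of 2.42, and 3.60 within cells without a prefix. All 3 cells with the prefix B1 were at or above 192.4 TPM for Kif11, in the upper part of the KO range.

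**Figure D1:**
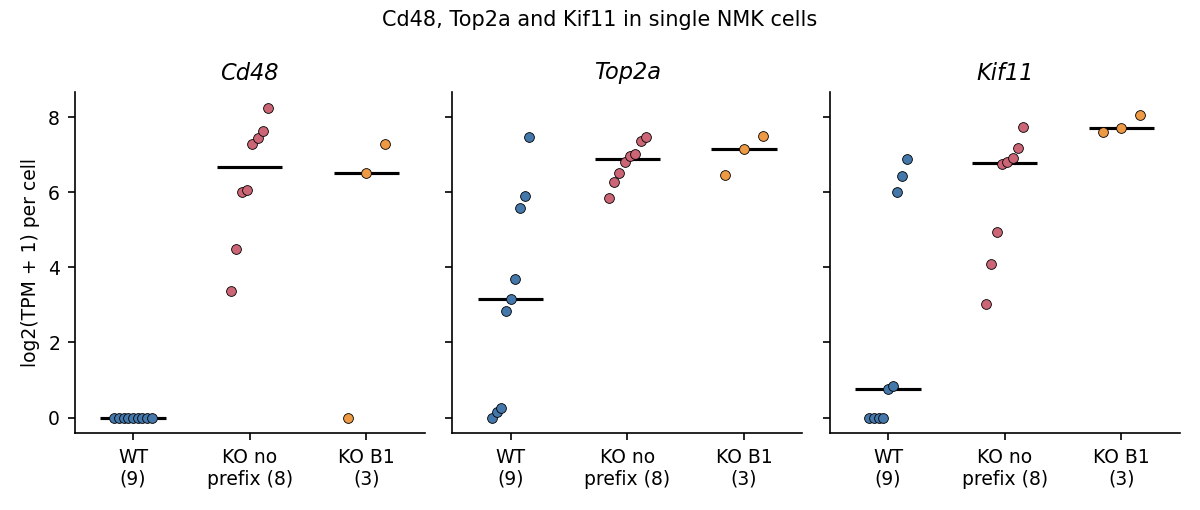
Level of Cd48, Top2a and Kif11 in each NMK cell, as log2(TPM + 1), for 9 WT cells, 8 KO cells without a title prefix and 3 KO cells with the prefix B1; points are cells and bars are medians. Cd48 is at 0 in all 9 WT cells and in 1 KO cell, and for Top2a and Kif11 a few WT cells reach the KO range.

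The sequences just before and after the start sites of these 3 genes are shown because the comparison concerns a DNA-binding factor on one side and cell cycle transcription on the other. Windows of 250 bases before to 50 after the start come from RefSeq on GRCm38.p6, written 5′ to 3′ on the strand of the gene. Cd48 lies at chr1:171681742-171682041 on the plus strand, Top2a at chr11:99024140-99024439 on the minus strand and Kif11 at chr19:37376132-37376431 on the plus strand. Capitals mark the RUNX core TGTGGT in Cd48, and the CCAAT box (CCAAT) and the CHR element (TTTGAA), known elements of mitosis promoters, in Top2a and Kif11, each on either strand.
Cd48: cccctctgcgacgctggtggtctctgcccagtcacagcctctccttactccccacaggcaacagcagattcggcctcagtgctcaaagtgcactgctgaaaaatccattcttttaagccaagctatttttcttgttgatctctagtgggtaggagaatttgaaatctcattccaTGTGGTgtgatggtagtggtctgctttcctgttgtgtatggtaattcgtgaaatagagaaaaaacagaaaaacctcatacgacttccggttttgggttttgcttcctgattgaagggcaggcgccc
Top2a: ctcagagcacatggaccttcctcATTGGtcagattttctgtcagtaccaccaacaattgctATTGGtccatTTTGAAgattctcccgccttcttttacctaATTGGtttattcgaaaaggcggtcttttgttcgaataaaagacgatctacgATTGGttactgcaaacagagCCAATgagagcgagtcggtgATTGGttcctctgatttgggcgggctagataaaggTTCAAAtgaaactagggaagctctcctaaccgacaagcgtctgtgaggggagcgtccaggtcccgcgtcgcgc
Kif11: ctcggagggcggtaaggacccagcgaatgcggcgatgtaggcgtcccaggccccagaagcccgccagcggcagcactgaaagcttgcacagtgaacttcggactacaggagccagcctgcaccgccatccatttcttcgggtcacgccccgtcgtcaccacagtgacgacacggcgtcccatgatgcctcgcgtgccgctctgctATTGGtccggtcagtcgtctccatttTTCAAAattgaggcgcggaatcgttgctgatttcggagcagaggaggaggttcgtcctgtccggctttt
The Cd48 window held the RUNX core once, 76 bases before the start, and the same letters stood in 16.8% of all RefSeq promoter windows. It also held a CHR element 93 bases before the start, left in lower case. Among windows of genes called higher in KO cells the RUNX core was in 12.4%, against 12.9% of windows of all genes tested and 15.9% of those called lower. Top2a held 6 CCAAT boxes and 2 CHR elements, and Kif11 held 1 of each beside 1 RUNX core. Over 49 windows of 46 genes on the mitosis list, 75.5% held a CCAAT box and 77.6% a CHR element, against 37.4% and 17.9% of all windows and 38.4% and 12.8% of windows of genes tested. Over 37 windows of 32 DNA replication genes, 54.1% held a CCAAT box, 8.11% a CHR element and 32.4% an E2F element (TTTGGCGC, TTTCGCGC, TTTCCCGC or TTTGCCGC), the last found in 2.26% of all windows, 4.14% of windows of genes tested and 8.16% of mitosis windows. No overlap between the motifs was removed, and a match of letters does not show binding.

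Genes of mitosis were higher in KO cells nearly across the list. Of 57 members, all measured, 49 were called higher and 0 lower, where 24.1% of all 11732 genes tested were called higher and 7.62% lower. The median difference over the members was 2.33, beside 0.36 over all genes. The score had its lowest, median and highest values at 2.55, 5.26 and 6.36 in KO cells and at 0.50, 1.99 and 5.11 in WT cells. WT replicates 1, 3, 1A and 3A scored 4.30 to 5.11 and lay among the KO cells, whereas the other 5 WT cells scored 0.50 to 1.99, below every KO cell. KO replicate 4A was the lowest KO cell at 2.55. The score differed by 2.26 with a pooled SD of 1.51, and by 1.92 within cells without a prefix, where 42 members were called higher and 1 lower.

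Birc5, Aurkb and Ncaph are mitosis genes that the naming rule picks for their large differences, beside Kif11. Birc5, which encodes the passenger protein survivin, had values of 46.5, 311.7 and 429.0 TPM (lowest, median, highest) in KO cells and 0.0, 0.1 and 327.1 TPM in WT cells. The same WT replicates 1, 3, 1A and 3A lay at 105.3 to 327.1 TPM, within the KO range. Aurkb, the kinase of the same complex, was at 0.0, 275.4 and 514.8 TPM in KO cells and at 0.0, 18.4 and 54.1 TPM in WT cells. For Aurkb 10 of 11 KO cells lay above every WT cell, and KO replicate 4A was listed at 0. Ncaph, a subunit of condensin I that compacts mitotic chromosomes, had means of 165 ± 116 TPM (SD, n = 11 cells) and 23.3 ± 37.7 TPM (SD, n = 9 cells), a difference of 4.21 with a pooled SD of 2.10. The single member with a lower mean in KO cells was Pttg1, the securin that holds separase back, with a difference of -0.78 and a pooled SD of 1.65.

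Genes of DNA replication followed, with less overlap between the genotypes. Of 40 members 30 were called higher and 1 lower, with a median difference of 1.51. The score ran from 4.85 over a median of 5.95 to 6.61 in KO cells and from 1.14 over 4.49 to 5.44 in WT cells, and 9 of 11 KO cells lay above every WT cell. It differed by 1.67 with a pooled SD of 0.91, and by 1.75 within cells without a prefix. Ccna2, the cyclin of S and G2 phase, was at 123.5, 208.6 and 376.2 TPM in KO cells and at 0.0, 27.9 and 44.6 TPM in WT cells. No KO cell overlapped a WT cell for this gene, which differed by 3.36 with a pooled SD of 1.22. Over all genes, 16 had every KO cell above every WT cell, or 0.136% of those tested, and 8 had every KO cell below, or 0.0682%. Chaf1b, a subunit of the chromatin assembly factor that follows the replication fork, was the only other member of the list among the 16. Rrm1, a subunit of ribonucleotide reductase, had means of 483 ± 236 TPM (SD, n = 11 cells) in KO and 84.6 ± 50.9 TPM (SD, n = 9 cells) in WT. Pola2, a subunit of DNA polymerase alpha, was at 1.8 to 24.5 TPM in KO cells and 0.0 to 4.8 TPM in WT cells. Gins1, of the replicative helicase, was the member called lower, with a difference of -1.41 and a pooled SD of 2.61, and -0.90 within cells without a prefix.

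The list of cell cycle inhibitors and D-type cyclins, which also holds the kinases Cdk4 and Cdk6, had no member called lower. Of 14 measured, 7 were called higher, or 50% beside 24.1% of all genes. The score differed by 1.08 with a pooled SD of 0.46. The median transcript length of the list was 3105.5 nt. Of all genes of 3001 to 4000 nt, 31.9% were called higher, or 50.2% of those averaging at least 10 TPM. The part of length and level in the share was not tested. Cdkn2c, an inhibitor of CDK4 and CDK6, was at 0.0, 76.9 and 190.6 TPM (lowest, median, highest) in KO cells and at 0.0, 0.0 and 101.9 TPM in WT cells, with 1 TPM or more in 9 of 11 and 2 of 9 cells. Ccnd3 had means of 66.2 ± 33.8 TPM (SD, n = 11 cells) in KO and 11.4 ± 5.99 TPM (SD, n = 9 cells) in WT, a difference of 2.35 with a pooled SD of 0.89. The other D-type cyclins, Ccnd1 and Ccnd2, differed by -0.66 and -0.86 with pooled SDs of 2.33 and 1.51. Of the D-type cyclins only Ccnd3 was called, and the differences of Ccnd1 and Ccnd2 were smaller than their pooled SDs.

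**Figure D2:**
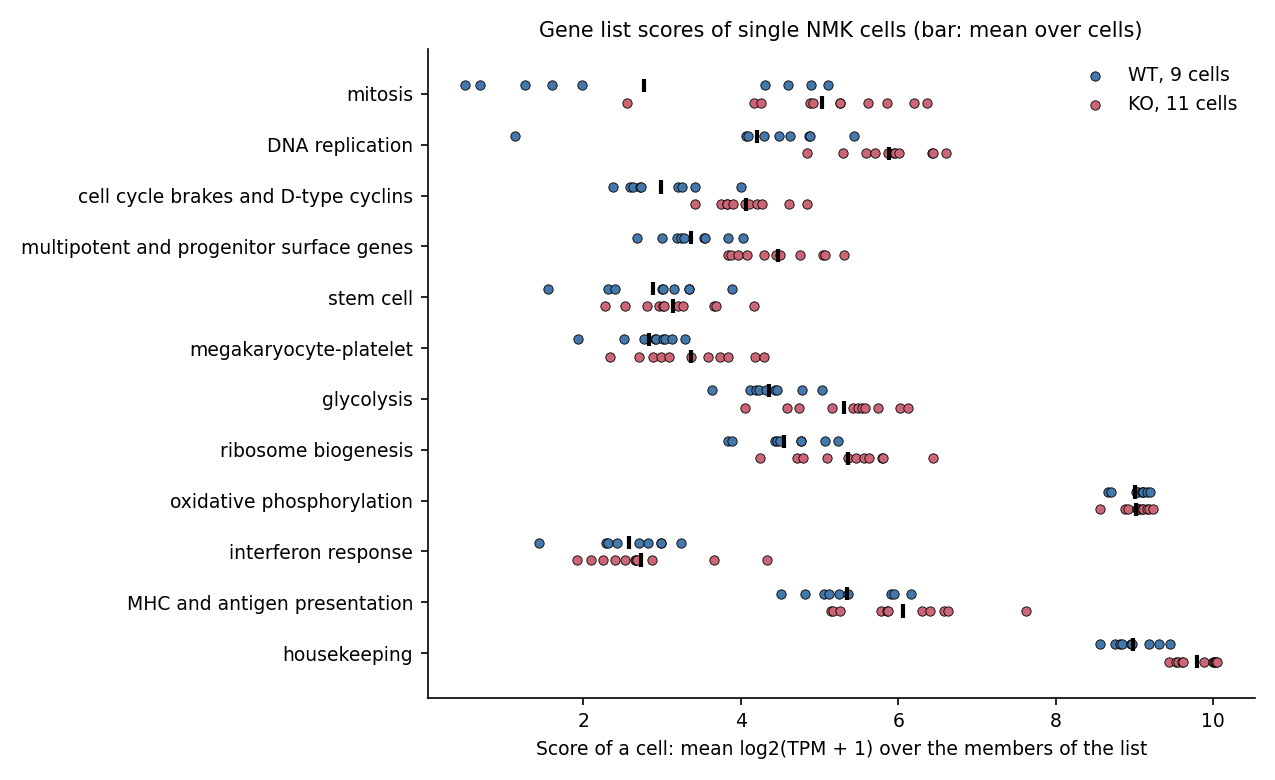
Score of each NMK cell for 12 gene lists, as the mean log2(TPM + 1) over members, with 9 WT cells above and 11 KO cells below on each line and the mean over cells as a bar. The mitosis scores of WT cells span 0.50 to 5.11, while oxidative phosphorylation scores of both genotypes lie between 8.57 and 9.24.

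Surface genes of multipotent and committed progenitors were more often higher than lower in KO cells. Of 21 measured, 12 were called higher and 2 lower, or 57.1% and 9.52% beside 24.1% and 7.62% of all genes. Their median difference was 1.15, and their median transcript length 2554 nt. Of all genes of 2001 to 3000 nt, 31.9% were called higher, or 46.2% of those averaging at least 10 TPM. The part of length and level in the share was not tested. The score differed by 1.10 with a pooled SD of 0.47, and by 0.86 with a pooled SD of 0.49 without Cd48. Cd34, the sialomucin that separates progenitors from the most quiescent mouse stem cells, was at 204.6, 668.7 and 1075.7 TPM in KO cells and at 9.4, 192.2 and 434.3 TPM in WT cells. The KO values overlapped the upper WT values, and the difference was 2.16 with a pooled SD of 1.22. Cd9, a tetraspanin abundant on platelets and stem cells, was lower in KO cells, at 1.0, 860.9 and 1622.6 TPM against 1083.4, 1589.3 and 4258.5 TPM. Its difference of -2.01 had a pooled SD of 2.10 and was -1.22 without KO replicate 4B, at 1.0 TPM.

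Stem cell genes as a list did not differ by more than the spread between cells, with a score difference of 0.26 and a pooled SD of 0.61. Of 30 members 8 were called higher and 3 lower, near the background shares. Gata2, a zinc finger factor of stem cells and early progenitors, had means of 67.7 ± 59.3 TPM (SD, n = 11 cells) in KO and 13.7 ± 17.2 TPM (SD, n = 9 cells) in WT. In the other direction, Pdzk1ip1 was at 59.3 ± 37.1 TPM in KO and 196 ± 95.5 TPM in WT, a difference of -2.09 with a pooled SD of 1.55. Kit, the stem cell factor receptor, differed by -0.06 with a pooled SD of 1.60. The megakaryocyte-platelet list, which checks the NMK label, had 9 of 30 members called higher and 2 lower. These were 30% and 6.67%, beside 24.1% and 7.62% of all genes. The score of the list ran from 2.34 to 4.29 in KO and from 1.93 to 3.29 in WT NMK cells. It differed by 0.53 with a pooled SD of 0.54, and by 0.27 within cells without a prefix. The 6 WT MK cells lay at 5.95 to 7.18, above every NMK cell. Of the 5 KO MK cells, 3 lay at 8.38 to 9.17, while replicates B1-4 and 2, at 3.76 and 3.92, lay inside the range of the KO NMK cells. The KO NMK scores above 3.84 came from cells with the prefix B1. Itga2b, the gene of the CD41 used for the sort, was at 1 TPM or more in 7 of 11 KO and 3 of 9 WT NMK cells.

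Markers of other lineages were mostly low or spread over both genotypes. Over all genes tested 24.1% were called higher and 7.62% lower. Among granulocyte-monocyte genes 11 of 26 reached 1 TPM in a genotype, with 1 called higher and 1 lower, or 9.09% each. Their score ran from 1.53 to 3.27 in KO and from 1.05 to 4.38 in WT cells. Of 5 lymphoid genes measured 0 were called higher and 1 lower, or 0% and 20%. Of 15 erythroid genes measured 5 were called higher and 3 lower, or 33.3% and 20%. The erythroid scores were 1.60 to 4.53 in KO and 1.22 to 3.57 in WT cells. Of 6 stromal and endothelial genes measured 2 were called higher and 0 lower, or 33.3% and 0%. For these, KO replicate 4A scored 3.42 where the other KO cells without a prefix reached 1.35. Of 12 mast cell and basophil genes only Fcer1g and Cpa3 reached 1 TPM in a genotype. Their score differed by 1.78 with a pooled SD of 2.53. In the MK cells of the table their score ran from 3.68 to 8.09 in WT and from 5.67 to 7.73 in KO. Fcer1g, the common signalling chain of Fc receptors, was at 265 ± 332 TPM (SD, n = 11 cells) in KO and 72.7 ± 122 TPM (SD, n = 9 cells) in WT, with 1 TPM or more in 8 of 11 and 3 of 9 cells. The difference of Fcer1g was 3.21 with a pooled SD of 3.87, and that of Cpa3, a mast cell protease, was 0.35 with a pooled SD of 2.26. The part of these lists in the differences above was not tested.

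Among metabolic and biosynthetic genes, 57.9% of the glycolysis list, 40.0% of ribosome biogenesis and 16.7% of oxidative phosphorylation were called higher, beside 24.1% of all genes. Of 19 glycolysis genes measured, 11 were called higher and 1 lower, with a median difference of 1.18. The score had values of 4.05, 5.49 and 6.12 (lowest, median, highest) in KO cells and 3.64, 4.32 and 5.03 in WT cells, and 8 of 11 KO cells lay above every WT cell. Pgam1, which interconverts phosphoglycerates, had means of 324 ± 98.5 TPM (SD, n = 11 cells) and 99.5 ± 60.2 TPM (SD, n = 9 cells), a difference of 1.87 with a pooled SD of 0.73. Ldhb, the lactate dehydrogenase subunit that favours pyruvate formation, was the member called lower, with a difference of -1.40. The difference of Ldhb was -0.96 without any 1 of KO replicates B1-3b, 1A and 4A. It was -0.30 in the ratio of mean TPM and -0.39 in medians over cells. With pseudocounts of 10 and 0.1 it was -0.64 and -2.29. Of 30 nucleolar genes of ribosome biogenesis, 12 were called higher and 0 lower, among them Mybbp1a with a difference of 3.26 and a pooled SD of 1.95, and Bop1 with 2.03 and 1.27. The score for ribosome biogenesis differed by 0.81, as did that for housekeeping genes. Oxidative phosphorylation had 5 of 30 members called higher and 2 lower, and the score differed by 0.02 with a pooled SD of 0.19. Within that list Sdha, a subunit of complex II, differed by 1.86 and Ndufb2, a small subunit of complex I, by -1.19, so the members did not share a direction. The lists also differed in transcript length, with medians of 2786 nt for glycolysis, 2863.5 nt for ribosome biogenesis and 1186.5 nt for oxidative phosphorylation, and the part of length in these shares was not tested.

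Genes of antigen processing and of interferon signalling were called higher at shares near the background of 24.1%, at 25% of 16 and 22.6% of 31 genes. Tap1 and Tap2, which together pump peptides into the endoplasmic reticulum, had means of 38.0 ± 20.1 and 90.8 ± 64.0 TPM in KO cells and 5.98 ± 10.2 and 14.97 ± 14.8 TPM in WT cells. Tapbp, the tapasin that bridges them to class I molecules, differed by 2.43 with a pooled SD of 1.18. These 3 and H2-Q7 were the 4 genes called higher of 16 on the list, which had 0 called lower, and H2-Q7 differed by 1.42, or 0.91 without WT replicate 1A. Of 31 interferon response genes, 7 were called higher and 6 lower, and the score differed by 0.16 with a pooled SD of 0.63, or by -0.12 within cells without a prefix. Irf1, an interferon-induced transcription factor, differed by 2.29 with a pooled SD of 2.29, whereas Gbp2, an interferon-induced GTPase, differed by -2.87 with a pooled SD of 2.59. Of 19 cytokine receptors measured 8, or 42.1%, were called higher and 0 lower. Tnfrsf1a, the main receptor for TNF, was at 23.2, 109.0 and 211.6 TPM (lowest, median, highest) in KO cells and at 0.0, 11.5 and 49.7 TPM in WT cells, a difference of 3.47 with a pooled SD of 1.48. Of 23 immediate early and stress genes 12 were called higher and 2 lower, or 52.2% and 8.70%. Median transcript lengths were 3708 nt for the cytokine receptors and 2026 nt for the immediate early and stress list. At 10 TPM or more, 50.2% of all genes of 3001 to 4000 nt and 46.2% of 2001 to 3000 nt were called higher. At 1 TPM or more it was 31.9% in both bins. The part of length and level in these shares was not tested.

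**Figure D3:**
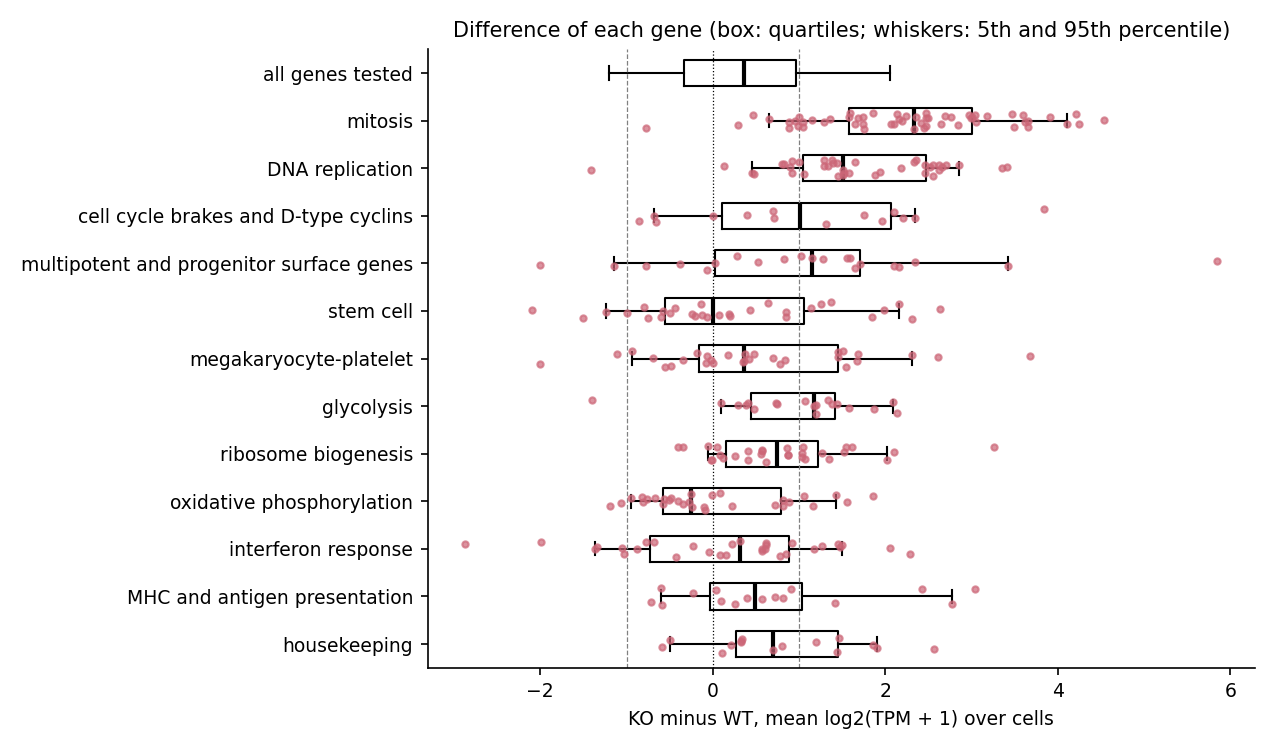
Difference between KO and WT NMK cells of each member of 12 gene lists (points), as mean log2(TPM + 1), beside the distribution over all 11732 genes tested; boxes show quartiles, whiskers the 5th and 95th percentiles, and dashed lines a difference of 1 in size. The median is 2.33 for mitosis, 1.51 for DNA replication and 0.36 for all genes.

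Over all genes, KO values were higher more often than lower. With the further condition that the difference exceeded the pooled SD, 1194 genes were higher and 242 lower, or 10.2% and 2.06% of those tested. Within cells without a prefix 2568 of 11538 genes were called higher and 1104 lower, or 22.3% and 9.57%. Rescaling each cell by the median ratio over widely read genes moved the median difference of all genes from 0.36 to 0.16 and the share of higher among all called genes from 76.0% to 61.1%. Under that scaling the scores for oxidative phosphorylation, interferon response and cholesterol synthesis differed by -0.36, -0.03 and -0.098, on the other side of 0. Mitosis and DNA replication differed by 1.95 and 1.34. Ranked by difference over pooled SD under the rule in the methods, the highest genes included abundant transcripts with little spread. Hnrnpab, an RNA-binding protein, was at 389.9 to 909.6 TPM in KO and 154.3 to 340.5 TPM in WT cells, and Ppp1cc, a catalytic subunit of protein phosphatase 1, at 147.0 to 316.1 and 20.4 to 124.6 TPM. Csrp1, a LIM domain protein of the actin cytoskeleton, was at 49.6 to 307.0 TPM in KO and 1.8 to 32.2 TPM in WT cells. None of these 3 genes overlapped between the genotypes. Tubb5, a beta tubulin, was at 679.6, 1267.4 and 1719.7 TPM in KO cells against 70.3, 208.1 and 704.3 TPM in WT cells. Tgfb1, the growth factor that restrains stem cell division, was at 11.5 to 108.1 TPM in KO and 0.0 to 17.1 TPM in WT cells, a difference of 3.60 with a pooled SD of 1.18.

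The lowest genes under the same rule were mostly abundant transcripts of small proteins. S100a11 and S100a6, small calcium-binding proteins, differed by -1.34 and -1.40 with pooled SDs of 0.38 and 0.61. Tmsb4x, the actin-binding thymosin beta 4, was at 1908.4 to 5155.2 TPM in KO and 4482.1 to 12080.0 TPM in WT cells. The difference of Tmsb4x was -1.19 with a pooled SD of 0.41. Other genes were read in WT cells and hardly or not in KO cells. Ndn, an imprinted gene linked to stem cell quiescence, was listed at 0 in all 11 KO cells and lay at 0.0, 66.5 and 231.7 TPM (lowest, median, highest) in WT cells, with 1 TPM or more in 7 of 9. Rprm, a p53 target linked to G2 arrest, was also listed at 0 in all 11 KO cells and was at 1 TPM or more in 7 of 9 WT cells, up to 165.1 TPM. Fas, the death receptor gene, was listed at 0 in every KO NMK cell. It was at 1 TPM or more in 5 of 9 WT cells and read in 4 of 5 KO MK cells. Of 18 p53 response genes measured, Fas among them, 3 were called higher and 3 lower. These were 16.7% in each direction, beside 24.1% and 7.62% of all genes. The p53 score differed by -0.08 with a pooled SD of 1.12. The score of 7 imprinted genes of stem cell quiescence differed by -0.56 with a pooled SD of 0.64. Without Ndn it differed by 0.12 with a pooled SD of 0.54.

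Differences depended on transcript length. Among genes averaging at least 10 TPM in KO or WT cells, the median difference was 0.09 for transcripts of 1 to 500 nt, -0.40 for transcripts of 501 to 1000 nt, 0.31 for 1001 to 2000 nt, 1.005 for 3001 to 4000 nt and 0.77 above 6000 nt, with the longest coding transcript in GENCODE M21 taken for each gene. Among genes averaging at least 1 TPM it was -0.30 for 501 to 1000 nt, 0.21 for 1001 to 2000 nt, 0.58 for 3001 to 4000 nt and 0.36 above 6000 nt. The share called higher varied too. At 10 TPM or more, 46.2% of genes of 2001 to 3000 nt and 50.2% of 3001 to 4000 nt were called higher. At 1 TPM or more it was 31.9% in both bins. The 24.1% of all genes tested takes no account of length or level. A length was found for 91.8% of the genes tested. Mitosis genes have a median length of 3285 nt. Their median was 2.85 over 11 members of 1001 to 2000 nt, 2.47 over 13 members of 3001 to 4000 nt and 1.59 over 5 members above 6000 nt. For DNA replication it was 1.22, 1.52 and 1.34 in the same bins, the last from 1 member. The list medians cover members averaging at least 1 TPM, and in each bin with a member they were above the median of all genes at either filter. Ribosomal protein genes, which are short, held 7.60% to 12.2% of TPM in KO cells and 11.6% to 14.6% in WT cells, and mitochondrial genes 5.38% to 8.10% and 7.08% to 11.2%. The 50 most abundant genes held 20.7% to 25.8% of TPM in KO and 26.1% to 31.0% in WT cells. The housekeeping score differed by 0.81 with a pooled SD of 0.26, and 10 of 11 KO cells lay above every WT cell. The part of length and composition in the differences was not tested, beyond the alternative scalings in the closing section.

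**Figure D4:**
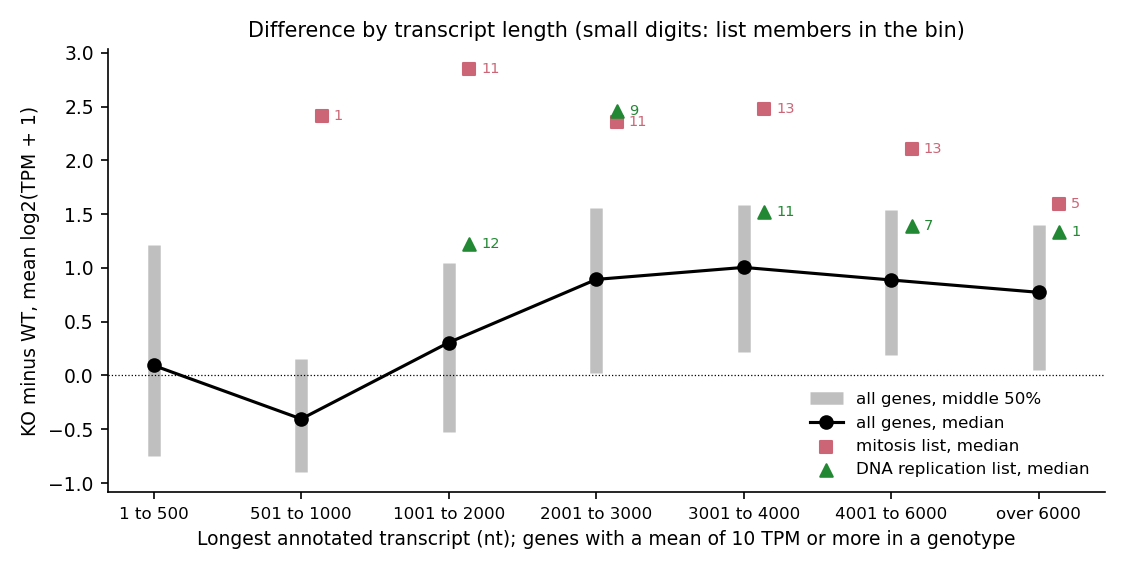
Difference between KO and WT NMK cells by transcript length, for genes averaging at least 10 TPM in KO or WT cells: median (black) with the middle 50% of genes (grey), and the medians of the mitosis and DNA replication lists, with small digits for the number of members in a bin. The median of all genes runs from -0.40 at 501 to 1000 nt to 1.005 at 3001 to 4000 nt, and both lists lie above it in every bin where they have a member.

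The genotypes also differed in sex-linked transcripts. Xist, the RNA that silences an X chromosome in female cells, was at 0.0, 27.2 and 64.4 TPM (lowest, median, highest) in WT cells and at 0.1 TPM or less in all 11 KO cells. At least 1 Y-linked gene was read at 1 TPM or more in 10 of 11 KO cells and in 0 of 9 WT cells. Ddx3y was at 0.0, 14.8 and 87.8 TPM in KO cells and at 0.1 TPM or less in WT cells. WT replicate 1A had neither Xist nor a Y-linked gene, and nor did KO replicate 4A. They had the fewest genes above 0 in their genotypes, 5475 in WT 1A and 6443 in KO 4A. Tsix overlaps Xist on the opposite strand, and without a stated strand setting its reads cannot be told apart from those of Xist. In the MK cells of the table, Y-linked genes were read in 5 of 5 KO cells and Xist in 6 of 6 WT cells. Genotype and the sex of the mice the cells came from therefore cannot be told apart here. Over autosomal genes alone 24.7% were called higher and 7.48% lower, with a median difference of 0.37. Over X-linked genes without Xist and Tsix 18.7% were called higher and 8.83% lower, with a median difference of 0.20. These shares do not tell genotype and sex apart.

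**Figure D5:**
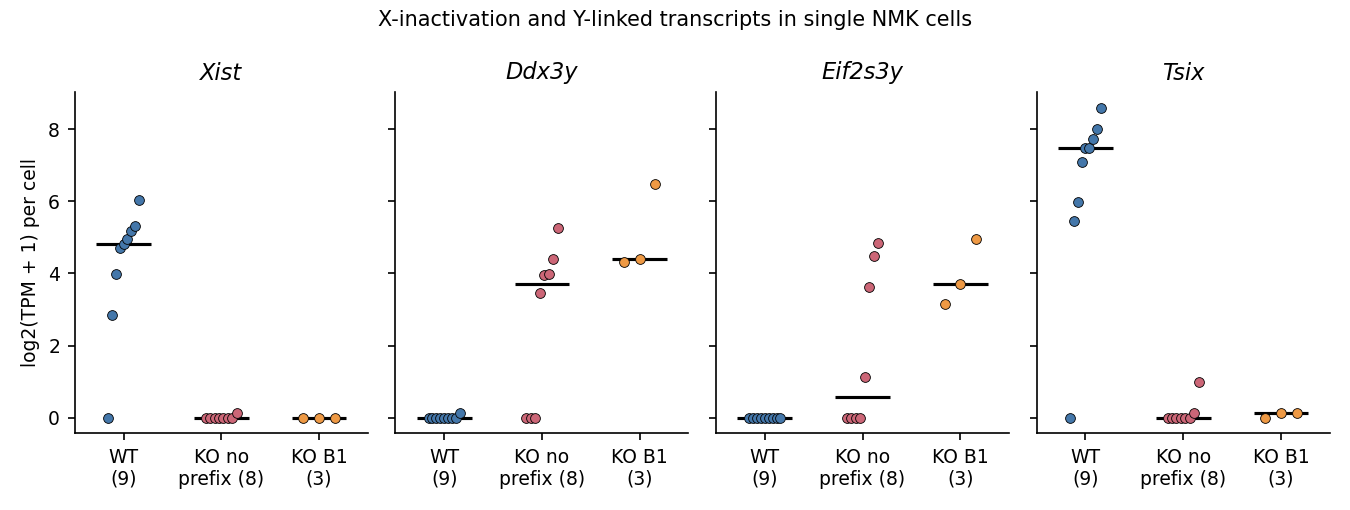
Level of Xist, the Y-linked genes Ddx3y and Eif2s3y, and Tsix in each NMK cell, as log2(TPM + 1), for 9 WT cells, 8 KO cells without a title prefix and 3 with the prefix B1; bars are medians. Xist is read in 8 of 9 WT cells and at 0.1 TPM or less in every KO cell.

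The same lists in the MK cells of the table, 5 KO and 6 WT, gave other values side by side. The mitosis score was 4.45 ± 1.20 in KO and 4.38 ± 0.55 in WT MK cells, a difference of 0.08 where NMK cells gave 2.26. For DNA replication the difference was -0.70 in MK cells and 1.67 in NMK cells, and for ribosome biogenesis -1.03 and 0.81. For progenitor surface genes it was 1.53 and 1.10, and for housekeeping genes -0.04 and 0.81. KO MK replicates B1-4 and 2, the cells with a low megakaryocyte-platelet score, scored 6.04 and 5.23 for progenitor surface genes, where the other 3 KO MK cells scored 3.50 to 4.05. KO MK replicates B1-3 and B1-4 and WT MK replicate B1-1 carry the prefix B1, and the MK comparison was not repeated without them. Whether the genotype difference itself differs between MK and NMK cells was not tested.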

How the data were processed

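RNA of single cells was amplified and made into libraries with SMART-Seq kits, per the labels' protocols. The authors deposited TPM per gene, rounded to 1 decimal, once for 46 libraries and once for the 33 left after they removed outliers, with identical values in both tables. The submitters' processing notes name FastQC 0.11.7, cutadapt 1.9.1, STAR 2.6.1e, featureCounts 1.6.2 and mm10. Which annotation and strand setting were used, how counts became TPM and how outliers were chosen is not given in the sources used here. The sum of TPM is the same in every library, so depth is unknown and intervals cover counting error only. Not analysed here were 44 of the 90 samples with labels. Of the columns in the full table, 1 matched no sample and was not used. Pairs of compared cells had Spearman correlations of 0.45 to 0.65 across genes, so none looked like a repeat deposit.

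Cells were grouped by genotype and NMK label. For genes averaging at least 1 TPM in KO or WT cells, the mean of log2(TPM + 1) over cells was compared between genotypes, with 1 as the pseudocount, in Python 3.11.15 with pandas 2.3.3, scipy 1.17.1 and matplotlib 3.10.9, and tested on simulated data with known shifts. The scale understates differences of low genes. The 29 gene lists and the cells compared were chosen with earlier results of these data known. Named genes were Cd48, Top2a, Kif11 and the RUNX family. To these came genes from the 15 highest and 15 lowest ratios of difference to pooled SD, averaging at least 10 TPM, with 1 TPM or more in 50% of the cells of that genotype, and the same sign without prefix, with the failed libraries and in the ratio of means. Predicted, pseudo-, mitochondrial and ribosomal protein genes were left out of these. Up to 4 list members with the largest differences at 10 TPM or more were added. Those printed are a subset, some genes the rule names are not reported here, and Pttg1, Gins1, Chaf1b, Ccnd1, Ccnd2, Ldhb, Kit, Itga2b and Slamf1 were added after their values were seen.

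Alternatives were pseudocounts of 0.1 and 10, no filter or a minimum mean of 10 TPM, median-ratio rescaling, TPM without ribosomal protein and mitochondrial genes, medians over cells in place of means, the ratio of mean TPM, the failed libraries put back, the full table, cells without a prefix, and each cell left out in turn. The addition of KO B1-1a was chosen after seeing the data.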

Additional observations from a re-analysis of the deposited data

Results flagged for a closer look

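Cells that stood apart from the rest of their genotype were sought with Dixon's ratio in the 9 WT cells and the 8 KO cells without a prefix, over list scores and the genes printed. Of 172 groups of values 28 held such a cell. The rule flags about 1 in 20 groups of independent normal values, a rate that does not hold here. A single cell at 0.1 TPM among zeros is always flagged, and some groups share genes. Several of these values are genes listed at 0 in a single cell, and the cause was not tested.

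KO replicate 4A, with the fewest genes above 0 of the KO cells compared, at 6443, stood apart most often. It was low for Aurkb (0.0 TPM, others 74.8 to 514.8), Birc5 (46.5 TPM, others from 197.4), Cbfb (13.9 TPM, others from 54.1), Pdzk1ip1 (0.0 TPM, others from 33.5) and Tnfrsf1a (23.2 TPM, others from 69.0). Its score for stromal and endothelial genes was 3.42, against 0.51 to 1.35 in the others, and it was listed at 1.0 TPM for Tsix and 0.1 TPM for Xist. KO replicate 4B was low for Cd9 at 1.0 TPM, Tap1 at 0.1 TPM, and Cdkn2c, Kit and Pttg1 at 0.0 TPM. KO replicate 1 was low for Ccnd3 at 9.1 TPM and had 0.2 TPM of Gbp2 where the others had 0.0. KO replicate 3A was listed at 0.1 TPM for Slamf1 where the others had 0.0.

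WT replicate 2 had a DNA replication score of 1.14, against 4.07 to 5.44 in the other WT cells, with Rrm1 at 0.0 TPM and Sdha at 7.6 TPM. WT replicate 1A had a sex-linked score of 0.0 and Tsix at 0.0 TPM, and was low for Kit (0.0 TPM) and Ccnd2 (0.2 TPM). It had the fewest genes above 0 of the WT cells compared, 5475. WT 1B was low for Ccna2 (0.0 TPM) and Cd34 (9.4 TPM) and high for Runx2 (6.5 TPM). WT 4A was low for Ldhb at 6.5 TPM. WT 1 was the only WT cell with Ddx3y above 0, at 0.1 TPM.

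Of the KO NMK cells held only by the full table and left out of the comparison, B1-1a had Cd48 at 585.9 TPM and 5A at 244.0 TPM, above the 0.0 TPM of every WT cell compared. B1-1a had 10818 genes above 0 and 5A had 3301.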

How the results depend on the processing

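Leaving out each cell in turn gave 2607 to 3038 genes called higher, 841 to 1095 called lower, a median difference of 0.31 to 0.41, and differences of 3.22 to 4.15 for Top2a, 3.82 to 4.68 for Kif11, 0.63 to 1.17 for Runx1, 1.98 to 2.55 for mitosis, 1.29 to 1.83 for DNA replication and 1.01 to 1.18 for progenitor surface genes. The share of KO cells with Cd48 was 90% to 100% when a cell was left out, and 100% in cells without a prefix. Genes called higher numbered 962 with a pseudocount of 10, 1638 with the failed libraries put back and 1385 in the full table. Genes called lower numbered 1847 with a pseudocount of 0.1, 233 with a pseudocount of 10, 1343 in the ratio of mean TPM, 1710 with the failed libraries and 1627 in the full table. So with failed libraries on the KO side the genes called higher no longer outnumbered those called lower, and the share of called genes depended on the libraries chosen. The DNA replication difference was 0.75 in the full table, and that of progenitor surface genes 0.58 with a pseudocount of 10, 0.54 with the failed libraries and 0.44 in the full table. The score changed sign for antigen presentation in the full table, to -0.026, and for housekeeping with the failed libraries, to -0.10, and in the full table, to -0.25. With the failed libraries the scores also changed sign for stem cell genes, to -0.12, interferon response, to -0.23, cholesterol synthesis, to -0.31, adhesion, to -0.42, and oxidative phosphorylation, to -1.16. Within cells without a prefix the scores changed sign for interferon response, to -0.12, and cholesterol synthesis, to -0.15. There they also changed sign for NF-kB and TNF genes, to -0.025, and oxidative phosphorylation, to -0.030. The cause was not tested. Over the alternatives other than a left-out cell, Top2a differed by 1.80 to 4.53, Kif11 by 2.07 to 6.14 and mitosis by 1.25 to 3.22. Adding KO B1-1a, a setting chosen after seeing the data, gave 2914 genes called higher and 865 lower.

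No paired analysis was possible because no label ties a cell to an animal or culture. Replicate numbers shared between the genotypes are names only. Depth is unknown, and in the mean differences fewer cells in a phase of the cycle cannot be told apart from less RNA per cell in the lists. By cell, WT replicates 1, 3, 1A and 3A scored 4.30 to 5.11 for mitosis and the other WT cells 0.50 to 1.99. The part of each in the differences was not tested.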
